A study of Arabidopsis thaliana with 6 samples.

Results

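The 48 genes described here are nuclear Arabidopsis thaliana genes for proteins of the photosynthetic light reactions and of carbon fixation. They were taken by locus identifier, with earlier results of these data known, and fall into 7 groups. These are 4 LHCA genes for the antenna of photosystem I, 14 LHCB genes for the antenna of photosystem II, 12 PSA and 10 PSB genes for subunits of photosystems I and II, 3 PET genes for electron carriers, 4 RBCS genes for the small subunit of Rubisco, and RCA for Rubisco activase. All 48 were found among 33554 genes in the expression tables, and all 48 passed the filter on low counts that left 20690 genes for testing.

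RNA-seq was made from dissected shoot apices of the primary inflorescence, with 3 libraries of vip3-1 and 3 of wild type (WT). vip3-1 is a T-DNA insertion line of VIP3, the gene for a subunit of the Paf1 complex (Paf1c), which travels with RNA polymerase II. Both genotypes were in the Col-0 background and were kept first under short days (21°C), then under continuous light (16°C), and flowers older than stage 4 were removed. Each library held RNA of 2 tubes of 30 to 35 apices. The libraries are called technical triplicates, and no source says that the tubes came from separate growths, so the p-values measure the spread between these pools of apices. In bulk RNA, fewer cells of a type and less RNA per cell cannot be told apart.

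In the chloroplast, light is absorbed by chlorophyll bound to antenna proteins and passed to the reaction centres of the photosystems. Photosystem II splits water, the cytochrome complex and plastocyanin carry electrons to photosystem I, and Rubisco then fixes carbon dioxide. The core reaction centre proteins are encoded in the plastid genome, whereas the antenna proteins, many small subunits and the small subunit of Rubisco are encoded in the nucleus, often by several near-identical genes. Antenna genes are known to be among the most abundant transcripts of green leaves, and the shoot apex holds mainly small dividing cells with young plastids.

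Libraries held 51944079 to 53519921 counts in vip3-1 and 50040048 to 69033269 in WT. VIP3 was counted at 5.96, 7.41 and 7.30 CPM (read counts scaled to library size with TMM factors) in vip3-1 libraries 1 to 3, against 40.8, 41.7 and 40.1 CPM in WT libraries 1 to 3, in the direction of the labels. Of the 10 meristem and flower primordium markers, all were counted in every library. Their sum lay between 1479 and 1554 CPM in vip3-1 and between 998 and 1254 CPM in WT, and 8 of the 10 were called higher. WT library 3 stood apart: the 10 anther and tapetum markers summed to 1114 CPM in it, against 76.9 and 78.1 CPM in the other WT libraries and 32.6 to 84.7 CPM in vip3-1. It also held the highest CPM among WT libraries for 46 of the 48 photosynthesis genes.

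Of the 48 photosynthesis genes, 20 passed the test and all of these were lower in vip3-1 apices, 14 of them antenna genes. A gene was called where the adjusted p-value of edgeR's quasi-likelihood test over all 20690 genes was under 0.05. Besides the 20 called lower in vip3-1, 0 were called higher (0 at an unadjusted p under 0.05 and 0 by DESeq2) and 28 were not called, whereas 30.7% of all tested genes were called, 16.1% lower and 14.6% higher. The log2 fold change (vip3-1 over WT) was negative for 46 of the 48 genes, against 51.7% of all tested genes. Its median was -0.45 over the 48 genes and -0.02 over all genes. In 24 of the 48 genes every vip3-1 library lay below every WT library (27.3% of all genes), and in 0 genes did every vip3-1 library lie above (25.3% of all genes). The 48 genes together made up 0.879% to 1.22% of the counts in vip3-1 and 1.49% to 2.14% in WT.

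**Figure D1:**
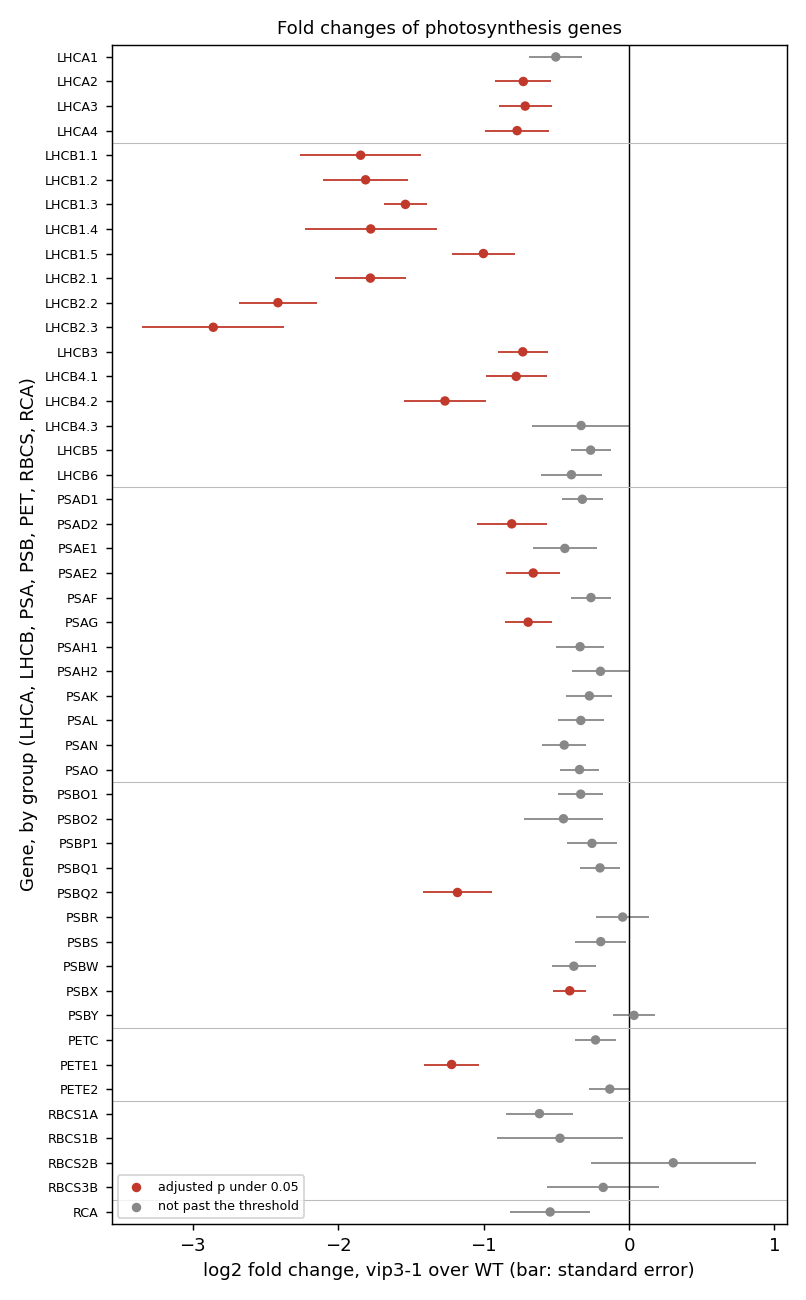
Log2 ratio of vip3-1 to WT (x axis, point) with its standard error (bar) for each of the 48 genes (rows, by group), red where the adjusted p-value was under 0.05. The LHCB1 and LHCB2 genes lie between -2.86 and -1.001, with LHCB4.2, PETE1 and PSBQ2 beside LHCB1.5, and only RBCS2B (0.30) and PSBY (0.03, but -0.06 with plain library sizes) lie to the right of 0.

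The count of called genes depended on the vip3-1 libraries. It was 6 of 48 without vip3-1 library 2 and again 6 without library 3 (background 6.61% and 9.53% called lower), and 13 without library 1 (background 8.37%). It was 19, 15 and 20 when WT library 1, 2 or 3 was left out (background 11.4%, 10.5% and 19.6%). In a fit with the replicate block it was 20, where 17.4% of all genes were called lower (35.7% in either direction). Of the 20, 11 had a log2 fold change of -1 or less, as did 4.21% of all genes when called. LHCB1.2, LHCB1.3, LHCB2.1, LHCB2.2, LHCB2.3 and PETE1 were called in each of these fits. The other 14 calls were all lost without vip3-1 library 2 (adjusted p = 0.0577 to 0.146) and all lost without library 3 (0.0524 to 0.116). LHCA2, LHCA4, LHCB4.1, LHCB4.2, PSAD2, PSAE2 and PSBX were also lost without vip3-1 library 1 (0.0519 to 0.0860). Without WT library 2 the calls of LHCB1.1, LHCB1.4, LHCB4.1, PSAD2 and PSAE2 were lost (0.0517 to 0.0748), and without WT library 1 that of PSBX was (0.0743).

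The groups differed in how many of their genes were called. Of the 18 LHCA and LHCB antenna genes, 14 were called lower (median log2 fold change -0.89), whereas 6 of the other 30 genes were (median -0.33). The 22 PSA and PSB genes had 5 calls, where 16.1% of all genes were called lower. DESeq2 called 7 of the 22 lower, where it called 19.4% of all genes lower. Of the 22 log2 fold changes 21 were negative, against 51.7% of all genes. RBCS and RCA had 0 calls by edgeR and 1 by DESeq2. This contrast between groups is a count and was not tested as such, since genes of a group are not replicates.

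The 4 LHCA genes encode the chlorophyll-binding proteins attached to photosystem I. LHCA2 (AT3G61470), LHCA3 (AT1G61520) and LHCA4 (AT3G47470) were called lower (adjusted p = 0.0293 to 0.0395) and LHCA1 (AT3G54890) was not, and in all 4 every vip3-1 library lay below every WT library. Levels per transcript length are given as FPKM, as the authors deposited them. LHCA4, the most abundant LHCA transcript per length in WT (324 ± 24.9 FPKM in vip3-1 and 555 ± 190.5 FPKM in WT, SD, n = 3 each), was counted at 426, 320.1 and 369 CPM in vip3-1, against 526, 527 and 848 CPM in WT. Its log2 fold change was -0.77 (SE 0.22), the lowest of the group. LHCA2 had 188, 142 and 164 CPM in vip3-1, against 227, 238 and 350.4 CPM in WT (log2 fold change -0.73, SE 0.19). LHCA3 had 296, 214 and 235 CPM in vip3-1, against 366, 351 and 504 CPM in WT (-0.71, SE 0.18). LHCA1 had the smallest difference of the group, with 408, 316 and 332 CPM in vip3-1, against 447, 419 and 629 CPM in WT (-0.50, SE 0.18, adjusted p = 0.0789).

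LHCB1 and LHCB2 proteins form, with LHCB3, the trimers of the major antenna of photosystem II, the most abundant membrane protein of green plants. All 8 of these LHCB1 and LHCB2 genes were called lower in vip3-1, with log2 fold changes between -2.86 and -1.001, and no vip3-1 library reached the level of any WT library in any of them. They were the 8 antenna genes with the strongest differences save for LHCB4.2, which lay between LHCB1.3 and LHCB1.5.

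LHCB1.3 (AT1G29930) was the most abundant of the 5 LHCB1 genes, with 864 ± 71.0 FPKM in vip3-1 and 2566 ± 606 FPKM in WT (SD, n = 3 each). It was counted at 951, 749.8 and 797 CPM in vip3-1, against 2290.2, 2186 and 2775 CPM in WT, a log2 fold change of -1.54 (SE 0.15, adjusted p = 0.00192). The lowest WT library was thus far above the highest vip3-1 library. LHCB1.1 (AT1G29920) had 84.7, 31.5 and 36.2 CPM in vip3-1, against 144, 242 and 162 CPM in WT (-1.85, SE 0.42). LHCB1.2 (AT1G29910) had 73.2, 36.8 and 38.7 CPM in vip3-1, against 142, 179 and 201 CPM in WT (-1.81, SE 0.29). In both genes vip3-1 library 1 lay well above its fellow libraries and still under the WT range. LHCB1.4 (AT2G34430) was the rarest copy, with 20.1, 6.38 and 8.43 CPM in vip3-1, against 28.1, 51.7 and 39.7 CPM in WT (-1.78, SE 0.45). LHCB1.5 (AT2G34420) had 278, 211 and 228 CPM in vip3-1, against 376, 426 and 633 CPM in WT (-1.001, SE 0.22). Adjusted p-values of these 4 genes lay between 0.00751 and 0.0290.

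The LHCB1 copies lie in clusters, LHCB1.1 to LHCB1.3 within chr1:10472280-10479114 and LHCB1.4 and LHCB1.5 within chr2:14522524-14525918 (TAIR10.1), and none has an intron. Their coding sequences were 86.8% to 96.4% identical in pairs, so that the estimated split of reads between copies is uncertain. The first 60 coding bases (RefSeq genome, TAIR10.1) are printed with the 16 positions that differ among the 5 in capitals and the rest shared by all.
LHCB1.1: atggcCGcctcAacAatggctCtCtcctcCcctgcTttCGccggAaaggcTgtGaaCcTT
LHCB1.2: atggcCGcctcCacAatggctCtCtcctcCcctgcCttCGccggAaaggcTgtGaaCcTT
LHCB1.3: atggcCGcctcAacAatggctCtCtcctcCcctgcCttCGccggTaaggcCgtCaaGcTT
LHCB1.4: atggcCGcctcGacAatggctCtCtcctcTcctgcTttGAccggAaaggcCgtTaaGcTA
LHCB1.5: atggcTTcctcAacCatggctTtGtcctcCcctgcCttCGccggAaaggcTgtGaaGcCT
Summed over the 5 copies, which does not depend on that split, LHCB1 had 1407, 1035 and 1108 CPM in vip3-1, against 2980.0, 3085 and 3811 CPM in WT (log2 fold change -1.48, SE 0.17, adjusted p = 0.00306).

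All 3 LHCB2 genes fell, and the lowest log2 fold changes of the 48 were among them. LHCB2.3 (AT3G27690) was counted at 15.4, 4.18 and 6.32 CPM in vip3-1, against 56.3, 51.1 and 80.6 CPM in WT, a log2 fold change of -2.86 (SE 0.49, adjusted p = 0.00870). LHCB2.2 (AT2G05070) had 38.0, 21.1 and 21.6 CPM in vip3-1, against 137, 121 and 173 CPM in WT (-2.41, SE 0.27, adjusted p = 0.00275). LHCB2.1 (AT2G05100) had 38.4, 23.2 and 22.3 CPM in vip3-1, against 83.3, 88.8 and 116 CPM in WT (-1.78, SE 0.24, adjusted p = 0.00469). In each, libraries 2 and 3 of vip3-1 were near each other and library 1 was higher, and all 3 lay under the WT range. LHCB2.1 and LHCB2.2 are 96.6% identical in coding sequence, and their sum was 76.4, 44.3 and 43.9 CPM in vip3-1, against 220.0, 209 and 289 CPM in WT (-2.13, SE 0.26, adjusted p = 0.00334).

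Among the other LHCB genes, 3 of 6 were called lower. LHCB3 (AT5G54270) encodes the remaining trimer protein, and LHCB4, LHCB5 (AT4G10340) and LHCB6 (AT1G15820) encode the monomeric antenna proteins that link the trimers to the core. LHCB4.2 (AT3G08940) had 113, 77.5 and 100.3 CPM in vip3-1, against 179.6, 180.3 and 339.9 CPM in WT (log2 fold change -1.27, SE 0.28). LHCB4.1 (AT5G01530) had 311, 231 and 273 CPM in vip3-1, against 375, 411 and 609 CPM in WT (-0.78, SE 0.21). LHCB3 had 287, 218 and 233 CPM in vip3-1, against 369.9, 351 and 505 CPM in WT (-0.73, SE 0.17). These 3 did not overlap between genotypes, with adjusted p-values of 0.0197 to 0.0338. The remaining 3 overlapped. LHCB5, with the smallest difference of the group, had 509, 447 and 464 CPM in vip3-1, against 529, 497 and 679 CPM in WT (-0.26, SE 0.14, adjusted p = 0.181). LHCB6 and LHCB4.3 (AT2G40100) had log2 fold changes of -0.40 and -0.33 (adjusted p = 0.188 and 0.472). LHCB4.3, known in Arabidopsis as a divergent form, changed sign to 0.12 without WT library 3.

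**Figure D2:**
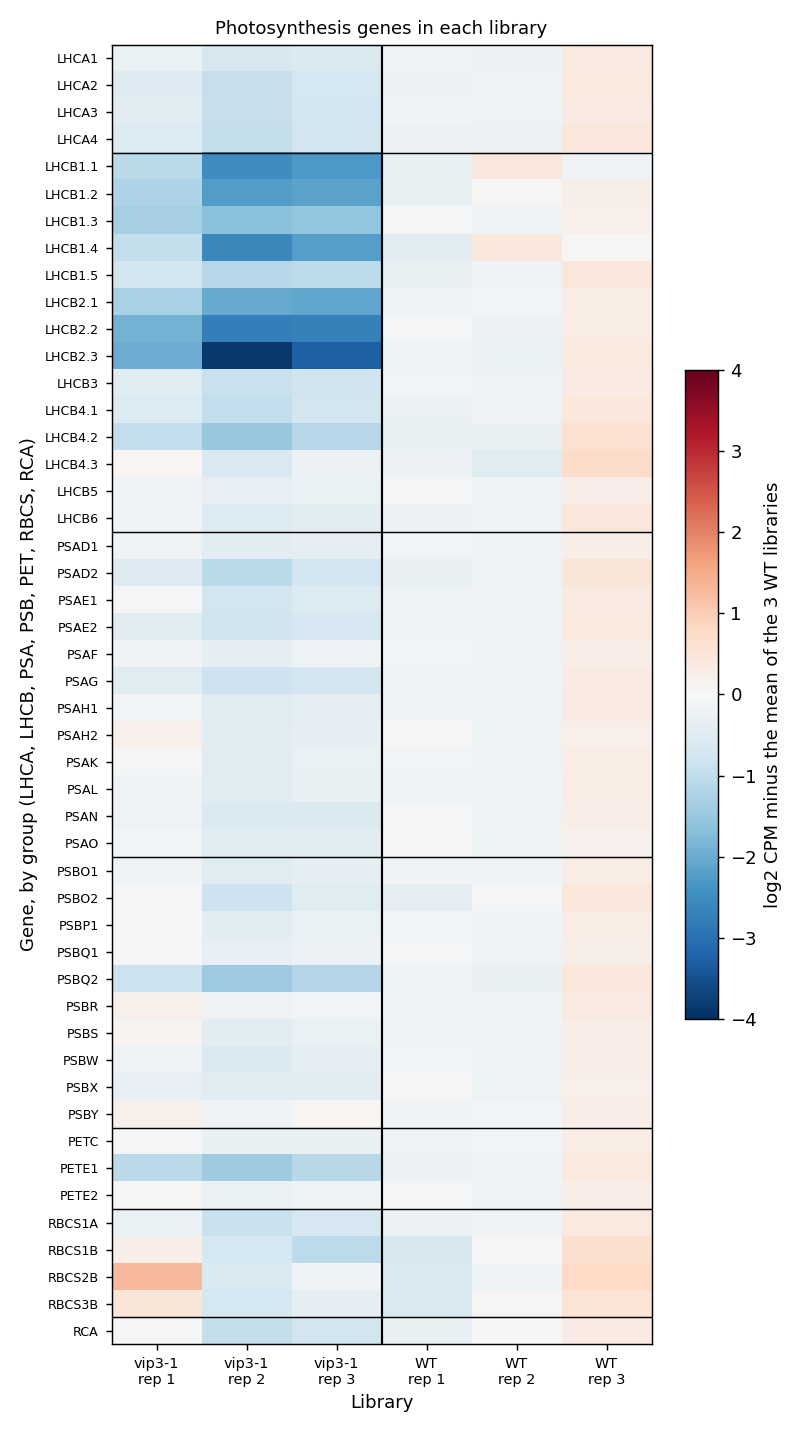
Level of each of the 48 genes (rows, by group) in each library (columns, vip3-1 left of WT) as log2 CPM minus the mean of the 3 WT libraries, blue below and red above. LHCB1 and LHCB2 rows are darkest blue, most of all in vip3-1 libraries 2 and 3, each row is highest within vip3-1 in library 1, and 46 of the 48 are highest within WT in library 3.

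The promoters of the antenna genes shared a short sequence that the choice of genes did not use. Motifs were searched on both strands in the 250 bases before each annotated gene start (RefSeq genome, TAIR10.1), for all 48 genes and for 27443 genes in all. The CCAAT box (CCAAT), a general promoter element bound by NF-Y factors, was in 17 of the 18 LHCA and LHCB promoters (94.4%) and in 14 of the other 30 (46.7%), against 46.0% of all promoters. LHCB6 was the antenna gene without it. The G-box (CACGTG), bound by bZIP and bHLH factors, was in 9 of the 48 promoters (18.8%) and in 6.49% of all promoters. The I-box (GATAAG) was in 13 of 48 (27.1%) and 12.3%, and the TATA box (TATAAA) in 21 of 48 (43.8%) and 47.3%. The evening element (AAAATATCT) was in 0 of 48 and in 2.36% of all promoters. A match is a description of letters only, and copies that lie side by side share sequence.

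Within the antenna genes the CCAAT box could not sort the called from the uncalled, since LHCB6 alone lacked it. Over all 48 genes, 17 of the 31 with a CCAAT box were called and 3 of the 17 without it. Among the 30 genes outside the antenna, 3 of 14 with it and 3 of 16 without it were called. LHCA1, LHCB4.3 and LHCB5 held the CCAAT box and were not called. The 4 antenna genes with a G-box had a median log2 fold change of -0.77 and the 14 without it -1.13. The promoters of the most abundant LHCB1 gene and of the 2 LHCB2 genes with the strongest falls are printed with all CCAAT and G-box matches in capitals (either strand), followed by that of LHCB6, where capitals mark a G-box and an I-box. They lie at chr1:10477635-10477884 (plus strand), chr2:1800473-1800722 (minus), chr3:10255656-10255905 (plus) and chr1:5447881-5448130 (minus).
LHCB1.3: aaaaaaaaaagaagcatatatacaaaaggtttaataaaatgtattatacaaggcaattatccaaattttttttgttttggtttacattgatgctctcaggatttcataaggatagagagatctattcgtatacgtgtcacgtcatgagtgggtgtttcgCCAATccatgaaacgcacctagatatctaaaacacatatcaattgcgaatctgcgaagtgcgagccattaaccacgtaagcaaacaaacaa
LHCB2.2: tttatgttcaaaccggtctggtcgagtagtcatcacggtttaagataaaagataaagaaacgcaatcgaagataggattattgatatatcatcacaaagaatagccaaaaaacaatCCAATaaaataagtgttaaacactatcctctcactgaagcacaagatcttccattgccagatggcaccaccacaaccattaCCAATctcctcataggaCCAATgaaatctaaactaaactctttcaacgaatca
LHCB2.3: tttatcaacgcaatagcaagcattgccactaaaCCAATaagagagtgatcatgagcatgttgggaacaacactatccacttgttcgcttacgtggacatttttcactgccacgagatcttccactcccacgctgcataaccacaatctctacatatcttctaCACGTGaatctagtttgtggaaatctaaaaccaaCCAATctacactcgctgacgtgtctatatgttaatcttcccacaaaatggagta
LHCB6: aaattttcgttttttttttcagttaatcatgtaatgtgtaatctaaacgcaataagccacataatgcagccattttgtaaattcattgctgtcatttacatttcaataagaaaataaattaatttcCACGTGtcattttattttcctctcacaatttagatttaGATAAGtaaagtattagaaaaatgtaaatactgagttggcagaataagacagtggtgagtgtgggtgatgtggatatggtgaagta
LHCB2.2 thus held 3 CCAAT boxes, and LHCB2.3 held 2 with a G-box between them, whereas LHCB1.3 held 1.

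The 12 PSA genes encode small subunits of photosystem I. PSAD2 (AT1G03130), PSAE2 (AT2G20260) and PSAG (AT1G55670) were called lower, 9 were not called, and all 12 log2 fold changes were negative, with a median of -0.34. PSAD and PSAE proteins form the stromal ridge where ferredoxin docks, and each has a pair of genes. PSAD2 had 68.0, 45.7 and 56.8 CPM in vip3-1, against 78.5, 84.7 and 135 CPM in WT, the lowest log2 fold change of the group at -0.81 (SE 0.24, adjusted p = 0.0460). PSAE2 had 75.8, 58.4 and 63.9 CPM in vip3-1, against 88.3, 90.6 and 134 CPM in WT (-0.66, SE 0.18, adjusted p = 0.0382). PSAG, a membrane subunit at the antenna side, had 175, 138 and 149.5 CPM in vip3-1, against 217, 225 and 307 CPM in WT (-0.69, SE 0.16, adjusted p = 0.0217). The genotypes did not overlap in these 3 genes.

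The other PSA genes differed less. PSAF (AT1G31330) was the most abundant per length (459 ± 29.8 FPKM in vip3-1 and 548 ± 109 FPKM in WT, SD, n = 3 each). It had 391, 330.4 and 375 CPM in vip3-1, against 406, 388 and 519.9 CPM in WT (-0.26, SE 0.14, adjusted p = 0.180). PSAH2 (AT1G52230), with the smallest difference, had 136, 86.4 and 89.6 CPM in vip3-1, against 118, 103 and 137 CPM in WT (-0.20, SE 0.20, adjusted p = 0.469). In both genes the genotypes overlapped. PSAD1 (AT4G02770), PSAE1 (AT4G28750), PSAH1 (AT3G16140), PSAK (AT1G30380), PSAL (AT4G12800), PSAN (AT5G64040) and PSAO (AT1G08380) had log2 fold changes between -0.45 and -0.27. PSAH, PSAL and PSAO proteins form the site where the mobile antenna docks, PSAK is a membrane subunit and PSAN lies on the lumenal side. Of these 7, PSAN alone did not overlap between genotypes (-0.45, SE 0.15, adjusted p = 0.0641).

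The 10 PSB genes encode subunits of photosystem II. PSBQ2 (AT4G05180) and PSBX (AT2G06520) were called lower and 8 genes were not called, with a group median of -0.29. PSBO, PSBP and PSBQ proteins shield the manganese cluster that splits water. PSBQ2 had 115, 75.0 and 91.0 CPM in vip3-1, against 186, 169 and 281 CPM in WT, a log2 fold change of -1.18 (SE 0.24, adjusted p = 0.0137). PSBX, a small membrane subunit, had 205, 189.5 and 190.3 CPM in vip3-1, against 253, 225 and 298 CPM in WT (-0.41, SE 0.11, adjusted p = 0.0369). It was the called gene with the smallest difference of the 20.

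The remaining PSB genes had log2 fold changes between -0.45 and 0.03. PSBR (AT1G79040), linked to the water-splitting side, was the most abundant per length (826 ± 31.4 FPKM in vip3-1 and 871 ± 259 FPKM in WT, SD, n = 3 each). It had 555, 426 and 454 CPM in vip3-1, against 437, 424 and 619 CPM in WT (-0.04, SE 0.18, adjusted p = 0.866). PSBY (AT1G67740), another small membrane subunit, had 197, 151 and 177 CPM in vip3-1, against 154, 156 and 203 CPM in WT (0.03, SE 0.15, adjusted p = 0.871). The genotypes overlapped in both, and both changed sign with 1 library left out, PSBR to 0.15 without WT library 3 and PSBY to -0.07 without vip3-1 library 1. PSBO1 (AT5G66570), PSBO2 (AT3G50820), PSBP1 (AT1G06680), PSBQ1 (AT4G21280), PSBS (AT1G44575) and PSBW (AT2G30570) were not called (adjusted p = 0.0958 to 0.414). PSBS senses lumen acidity in photoprotection, and PSBW is a small membrane subunit. Of these 6, PSBW alone did not overlap between the genotypes (-0.38, adjusted p = 0.0958).

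In the PET group, 1 gene of 3 was called. PETE1 (AT1G76100) and PETE2 (AT1G20340) encode the 2 plastocyanins, the copper proteins that carry electrons to photosystem I, and PETC (AT4G03280) encodes the Rieske protein of the cytochrome complex. PETE1 had 20.7, 16.2 and 19.9 CPM in vip3-1, against 37.1, 38.7 and 56.7 CPM in WT, a log2 fold change of -1.22 (SE 0.19, adjusted p = 0.00657). PETE2, the more abundant gene (460.2 ± 24.9 FPKM in vip3-1 and 507 ± 91.4 FPKM in WT, SD, n = 3 each), had 404, 324 and 346 CPM in vip3-1, against 367, 347 and 463 CPM in WT (-0.13, SE 0.14, adjusted p = 0.496). The genotypes were apart in PETE1 and overlapped in PETE2. PETC had a log2 fold change of -0.23 (SE 0.14, adjusted p = 0.248). The promoters of the plastocyanin genes are printed because the pair differed in response, PETE1 at chr1:28554931-28555180 (minus strand) and PETE2 at chr1:7043393-7043642 (minus), with every match of the searched motifs in capitals.
PETE1: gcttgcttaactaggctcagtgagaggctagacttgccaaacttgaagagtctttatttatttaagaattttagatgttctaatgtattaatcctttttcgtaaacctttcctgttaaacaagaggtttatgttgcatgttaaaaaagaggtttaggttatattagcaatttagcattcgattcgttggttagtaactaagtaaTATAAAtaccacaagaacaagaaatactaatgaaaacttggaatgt
PETE2: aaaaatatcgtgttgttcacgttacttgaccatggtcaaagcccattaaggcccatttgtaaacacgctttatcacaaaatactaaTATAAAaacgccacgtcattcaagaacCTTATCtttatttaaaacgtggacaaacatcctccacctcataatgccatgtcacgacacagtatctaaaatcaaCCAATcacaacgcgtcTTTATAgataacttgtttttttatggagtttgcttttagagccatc
PETE1 held a single match, a TATA box, and PETE2 held TATA boxes, an I-box and a CCAAT box.

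Of the 4 RBCS genes and RCA (AT2G39730), 0 passed edgeR's test, while 1, RBCS1A (AT1G67090), had an unadjusted p under 0.05 and was called by DESeq2 (adjusted p = 0.0167). RBCS1A, which gave most of the RBCS transcript, had 1779, 1151 and 1356 CPM in vip3-1, against 1809, 1964 and 2795 CPM in WT (log2 fold change -0.62, SE 0.23, adjusted p = 0.0838). Its vip3-1 libraries lay under all WT libraries, library 1 by a narrow margin. RBCS3B (AT5G38410) had 253, 112 and 142 CPM in vip3-1, against 119, 188 and 268 CPM in WT (-0.18, SE 0.38). RBCS2B (AT5G38420) had 72.6, 19.2 and 26.9 CPM in vip3-1, against 19.3, 26.0 and 51.0 CPM in WT (0.30, SE 0.57), the highest log2 fold change of the 48. RBCS1B (AT5G38430) had 17.4, 8.79 and 7.03 CPM in vip3-1, against 9.24, 14.4 and 22.6 CPM in WT (-0.47, SE 0.43). In all 3 the genotypes overlapped (adjusted p = 0.421 to 0.740), and vip3-1 library 1 stood above its fellows. Without that library the log2 fold change of RBCS2B was -0.48, and without WT library 3 that of RBCS3B was 0.14.

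RBCS1B, RBCS2B and RBCS3B lie within chr5:15376988-15385320 and are 96.7% to 97.3% identical in coding sequence, so their split of reads is uncertain as well. Their sum was 343, 139.8 and 176 CPM in vip3-1, against 147, 228 and 341 CPM in WT (-0.12, SE 0.41, adjusted p = 0.839). RCA, whose product frees Rubisco from bound sugars, had 323, 169 and 199.6 CPM in vip3-1, against 267, 326 and 414 CPM in WT (-0.54, SE 0.27, adjusted p = 0.168).

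Per length, RBCS1A and LHCB1.3 had the highest mean levels of the 48 genes in both genotypes. In vip3-1, RBCS1A led with 1628 ± 259 FPKM, followed by LHCB1.3 with 864 ± 71.0 FPKM and PSBR with 826 ± 31.4 FPKM, these last lying within each other's spread (SD, n = 3). In WT, LHCB1.3 with 2566 ± 606 FPKM and RBCS1A with 2512 ± 700.4 FPKM did not differ beyond their spread, and PSBR followed with 871 ± 259 FPKM.

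Shares within the set take out a level that moves all 48 genes of a library together. LHCB1 and LHCB2 gave 9.22%, 10.7% and 10.4% of the summed FPKM of the 48 genes in vip3-1, against 18.2%, 21.3% and 19.3% in WT. Within all LHCB genes their share was 50.4% ± 1.18 in vip3-1 and 66.7% ± 2.28 in WT (SD, n = 3 each). Within LHCB1 and LHCB2, the LHCB2 share was 4.84% ± 0.908 in vip3-1 and 8.28% ± 0.534 in WT. Neither genotype overlapped the other in any of the 3 shares, vip3-1 library 1 and WT library 3 included. A 2-sided exact permutation test of 3 libraries against 3 cannot give less than p = 0.1, the value it gives for each share without overlap. PSA and PSB genes took higher shares without overlap, 24.5% ± 0.0750 and 26.4% ± 0.181 in vip3-1 and 21.3% ± 1.06 and 21.3% ± 1.51 in WT. These are parts of the same total, so a lower share of LHCB1 and LHCB2 by itself raises the shares of other genes. Their levels did not rise with their shares, since 21 of the 22 PSA and PSB log2 fold changes were negative (group medians -0.34 and -0.29). The shares of LHCA and RBCS overlapped, at 8.27% ± 0.633 and 14.7% ± 1.75 in vip3-1 and 8.70% ± 0.734 and 14.4% ± 0.799 in WT.

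The same held between paired copies of a gene. PETE1 gave 5.65%, 5.96% and 6.78% of the plastocyanin FPKM in vip3-1, against 10.4%, 12.4% and 13.4% in WT. PSBQ2 gave 37.9%, 29.5% and 32.2% of PSBQ in vip3-1, against 50.002%, 45.8% and 51.3% in WT. PSAD2 gave 22.0%, 17.2% and 19.4% of PSAD in vip3-1, against 23.96%, 23.5% and 27.2% in WT. In these 3 pairs the named copy took a smaller part in every vip3-1 library than in any WT library, and so did LHCB4.2 beside LHCB4.1 (27.9% ± 0.928 in vip3-1 and 34.7% ± 2.99 in WT). The pairs PSBO and PSAH overlapped in FPKM and in counts, with PSBO2 at 7.65% ± 1.25 in vip3-1 and 8.25% ± 0.954 in WT by FPKM. The PSAE pair overlapped by FPKM, whereas by counts PSAE2 gave 34.2%, 39.5% and 38.0% in vip3-1, against 40.5%, 39.7% and 41.0% in WT, without overlap.

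**Figure D3:**
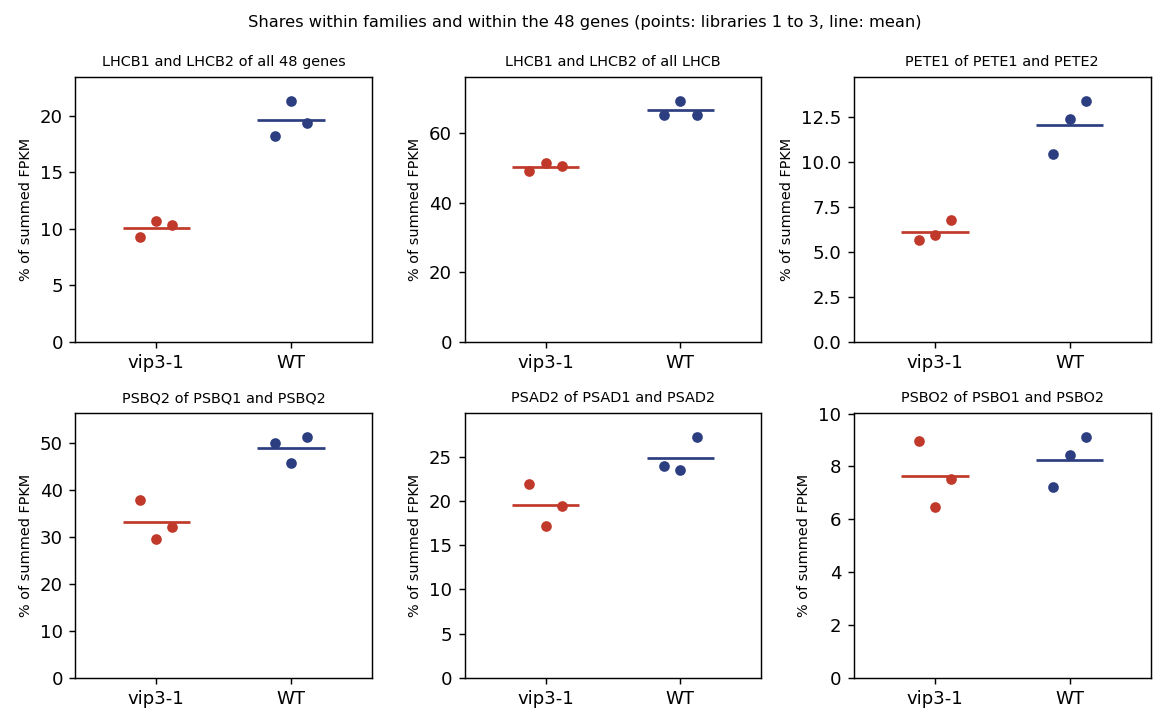
Share of summed FPKM (y axis, percent) in each of 3 vip3-1 (red, left) and 3 WT libraries (blue, right), with the mean as a line, for 6 shares within families or within the 48 genes. The genotypes are apart in the first 5 panels, for example 9.22% to 10.7% in vip3-1 and 18.2% to 21.3% in WT for LHCB1 and LHCB2, and overlap for PSBO2.

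The 48 genes moved together between libraries of a genotype. In CPM, vip3-1 library 1 was the highest of its genotype for all 48, and WT library 3 was for 46. WT library 2 was highest for LHCB1.1 and LHCB1.4. In FPKM this order did not hold for every gene. LHCB1.3 had 789, 874 and 930 FPKM in vip3-1 libraries 1 to 3, and LHCA1 had 302, 343 and 360 FPKM. The FPKM sum of the 48 genes was still highest in library 1 of vip3-1 (13666, against 11741 and 12978 in libraries 2 and 3). The median difference in log2 CPM from the other libraries of the genotype was 0.33, -0.30 and -0.07 for vip3-1 libraries 1 to 3. For WT libraries 1 to 3 it was -0.23, -0.26 and 0.48. The median over all genes was within 0.01 of 0 in each, where TMM scaling by design holds it near 0. For the RBCS genes these medians were 1.07, -0.60 and -0.36 in vip3-1 and -0.91, -0.10 and 0.90 in WT. Without WT library 3, where anther and tapetum markers were high, the same 20 genes were called (20 of 20 shared), but the median over the 48 genes was -0.27. Without that library the group medians were -0.50 for LHCA, -1.16 for LHCB, -0.21 for PSA, -0.13 for PSB, -0.07 for PET and 0.02 for RBCS. The part of anther and tapetum RNA in the remaining differences was not tested.

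Some chlorophyll synthesis genes, which feed the antenna proteins with pigment, were lower as well. Of 25 genes of the pathway, 11 were called lower, 0 higher and 14 were not called, with a median log2 fold change of -0.36, whereas 16.1% of all genes were called lower. In 21 of the 25 every vip3-1 library lay below every WT library (27.3% of all genes). The count of calls was 6 without vip3-1 library 2 (background 6.61%), and PORA, PORB, CAO, HEMA1, GSA1 and HEME2 were called whichever library was left out. PORA, a light-dependent protochlorophyllide oxidoreductase best known from dark-grown seedlings, had 0.543, 0.749 and 0.528 CPM in vip3-1, against 13.0, 13.1 and 9.47 CPM in WT (-4.28, SE 0.22, adjusted p = 0.000330). Its relative PORB had 242, 224 and 283 CPM in vip3-1, against 577, 473 and 642 CPM in WT (-1.18, SE 0.15, adjusted p = 0.00362). PORC, the third of the family, had 49.8, 42.6 and 45.6 CPM in vip3-1, against 41.4, 40.7 and 47.9 CPM in WT (0.09, SE 0.10, adjusted p = 0.508). PORA and PORB were thus apart between the genotypes and PORC overlapped.

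CAO, which makes the chlorophyll b that binds to the antenna, had 49.3, 39.4 and 44.0 CPM in vip3-1, against 76.2, 69.3 and 92.9 CPM in WT (-0.84, SE 0.13, adjusted p = 0.00714). HEMA1, the glutamyl-tRNA reductase at the entry of the pathway, had 86.9, 77.7 and 88.7 CPM in vip3-1, against 124, 122 and 161 CPM in WT (-0.68, SE 0.12, adjusted p = 0.00994). GUN4 and GUN5 belong to the magnesium chelatase step. GUN4 had 47.9, 39.8 and 45.5 CPM in vip3-1, against 57.8, 53.7 and 61.2 CPM in WT (-0.38, adjusted p = 0.0262). GUN5 had 435, 380.1 and 434 CPM in vip3-1, against 454, 455 and 572 CPM in WT (-0.25, adjusted p = 0.165). HEMC, porphobilinogen deaminase, had the smallest called difference (-0.36, adjusted p = 0.0136), with 111, 99.5 and 96.9 CPM in vip3-1, against 136, 128 and 132 CPM in WT.

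**Figure D4:**
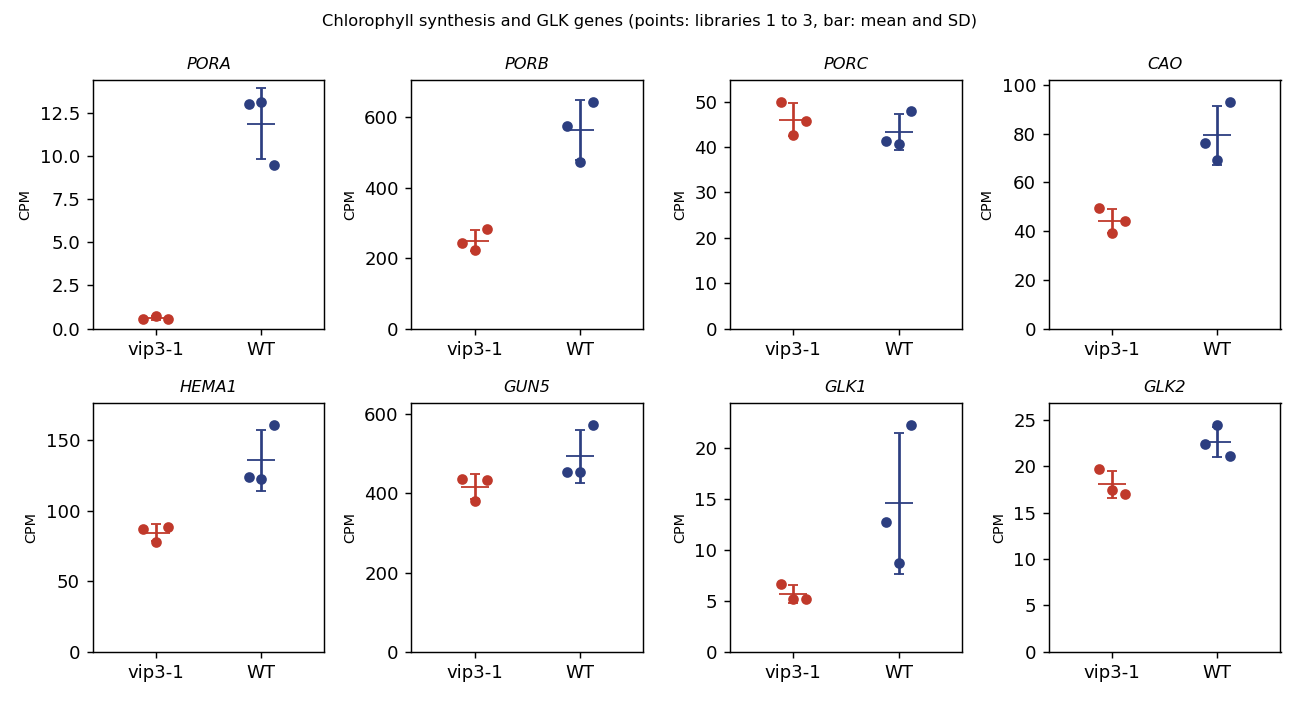
CPM (y axis) of 6 chlorophyll synthesis genes and of GLK1 and GLK2 in each vip3-1 library (red, left) and each WT library (blue, right), with mean and SD (n = 3 each). PORA lies at 0.528 to 0.749 CPM in vip3-1 and 9.47 to 13.1 CPM in WT, while PORC overlaps between the genotypes.

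In edgeR's test few genes of the Calvin cycle or of the rest of the light reactions were called. Of 19 Calvin cycle genes, 2 were called lower and 0 higher (median -0.28, background 16.1% lower). DESeq2 called 8 of the 19 lower, where it called 19.4% of all genes lower. RPE, ribulose-phosphate epimerase, had 119, 107 and 117 CPM in vip3-1, against 138, 147 and 203 CPM in WT (-0.51, adjusted p = 0.0472). GAPA, a subunit of chloroplast glyceraldehyde-phosphate dehydrogenase, had 298, 245 and 266 CPM in vip3-1, against 334, 339 and 454 CPM in WT (-0.48, adjusted p = 0.0489). Under the replicate block, CP12-1, a regulator of the cycle, was called as well (adjusted p = 0.0312 with the block and 0.0743 without it). Of 24 other genes of the light reactions, including ATP synthase, ferredoxin and its reductase and rare antenna relatives, 1 was called lower and 0 higher (median -0.04). It was PSBTN, a small photosystem II subunit, with 162, 118 and 131 CPM in vip3-1, against 179.7, 182 and 227 CPM in WT (-0.52, adjusted p = 0.0398). At an unadjusted p under 0.05, 8 of the 19 Calvin cycle genes were lower and 0 higher. Of the 24 other genes, 3 were lower and 1 higher at that threshold. The share of all genes at an unadjusted p under 0.05 is not given here, so these counts describe the lists only. The call of RPE was lost without WT library 2 or any vip3-1 library, that of PSBTN on leaving out any library but vip3-1 library 1, and that of GAPA on leaving out any but WT library 3, and the cycle then had 0 to 4 calls, of which 4 came without WT library 3 (background 19.6%) and 3 without vip3-1 library 1 (background 8.37%). DESeq2 called 2 of the 24 other genes lower and 1 higher.

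Of 23 listed regulators of photosynthesis genes, 21 were tested, 4 were called lower and 2 higher, near the shares of all genes (16.1% lower and 14.6% higher). GLK1 and GLK2 are transcription factors known to activate antenna and chlorophyll synthesis genes. GLK1 had 6.69, 5.14 and 5.15 CPM in vip3-1, against 12.8, 8.74 and 22.3 CPM in WT (-1.37, SE 0.34, adjusted p = 0.0269). GLK2 had 19.7, 17.4 and 17.0 CPM in vip3-1, against 22.4, 24.4 and 21.2 CPM in WT (-0.33, SE 0.09, adjusted p = 0.0357). Both were below the WT range in every vip3-1 library, and the GLK1 call was lost on leaving out any 1 vip3-1 library (adjusted p = 0.0652 to 0.101). In all, 0 of the 6 regulator calls held in every one of the 6 fits that left out 1 library. HY5, a bZIP activator of light-induced genes, had 13.5, 13.9 and 15.6 CPM in vip3-1, against 10.1, 10.3 and 13.2 CPM in WT (0.36, adjusted p = 0.0786, or 0.0327 with the replicate block). Its homologue HYH was called higher, with 10.7, 10.1 and 7.93 CPM in vip3-1, against 7.31, 6.76 and 5.21 CPM in WT (0.57, adjusted p = 0.0489). PIF5 and SIG6 were also called lower (-0.61 and -0.31) and PIF3 higher (0.35). PIF factors repress greening in the dark, and SIG6 directs the plastid RNA polymerase.

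Antenna genes are also known to follow the circadian clock, and harvest times were not compared here. Of 11 clock genes 10 were tested, and 3 were called lower and 0 higher (background 16.1% and 14.6%). DESeq2 called 5 lower and 1 higher, where it called 4021 of all 20690 genes lower and 4063 higher. ELF4, of the evening complex, had 2.41, 2.34 and 2.02 CPM in vip3-1, against 3.90, 4.55 and 4.09 CPM in WT (-0.89, adjusted p = 0.0107). LHY had 63.1, 59.4 and 41.1 CPM in vip3-1, against 93.3, 92.3 and 76.2 CPM in WT (-0.68, adjusted p = 0.0289). The LHY call was lost without WT library 1 or 2 or vip3-1 library 2, which left 2 or 3 clock genes called lower. The third call was RVE8 (-0.84). CCA1, the partner of LHY, had 40.4, 39.9 and 30.4 CPM in vip3-1, against 43.0, 43.0 and 43.8 CPM in WT (-0.23, adjusted p = 0.170). TOC1, an evening gene, had 111, 113 and 144 CPM in vip3-1, against 145, 149 and 231 CPM in WT (-0.51, adjusted p = 0.101, or 0.0147 with the block). Their part in the antenna difference was not tested.

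Of the 10 meristem and primordium markers, 8 were called higher in vip3-1 (background 14.6%). CLV3, the stem cell peptide gene, had 21.6, 12.7 and 15.2 CPM in vip3-1, against 2.83, 3.11 and 3.92 CPM in WT (2.33, adjusted p = 0.00201). The called marker with the smallest difference was CLV1, a receptor kinase of the meristem, with 105, 104 and 119 CPM in vip3-1, against 79.5, 93.0 and 92.2 CPM in WT (0.31, adjusted p = 0.0451). Of 7 guard cell and epidermis markers 1 was called, ATML1, higher in vip3-1 (0.53). Of 5 vascular markers 1 was called, XCP2 (1.31), and of the 6 tested carpel and ovule markers 1, SPT (0.44), both higher, against 14.6% of all genes called higher. The log2 fold changes of all 9 anther and tapetum markers tested were negative, with a median of -2.57 (-1.28 with the replicate block), WT library 3 holding most of their counts. Of these 9, 0 were called by edgeR (3 at an unadjusted p under 0.05), 4 by DESeq2 and 3 with the replicate block (ACOS5, AMS and TDF1), all lower. Over all genes DESeq2 called 19.4% lower and the block fit 17.4%, and the share at an unadjusted p under 0.05 is not given here. With 1 library left out, between 3 and 8 of the 10 meristem markers were called higher. It was 3 without vip3-1 library 2 (1282 of 21045 genes called higher) and 8 without WT library 3 (3956 of 20928). Without WT library 3, 1 meristem marker was called lower and 1 anther and tapetum marker higher. Without WT library 2, 1 anther and tapetum marker was called lower. The summed meristem markers ran opposite to the photosynthesis genes between the genotypes, and their part in the result was not tested.

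The 20 called genes did not share a single structure. Of the 13 genes without an intron in their first annotated transcript model, 10 were called, the 5 LHCB1 genes among them. Of the 35 genes with introns, 10 were called. Other models were not counted. LHCB4.2 is among the 13, and its first model has 684 coding bases, against 873 in LHCB4.1. Another annotated gene overlaps 17 of the 48 genes, 9 of the called among them, and in 2 the overlap is on the same strand. Of all tested genes 16.1% were called lower. The share among all intronless or overlapped genes was not computed, so these counts describe the 48 genes only. The strand setting of the count is not given in the sources used here, so reads of those neighbours could not be told apart from the gene's own.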

How the data were processed

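RNA-seq libraries of dissected inflorescence apices, 3 of vip3-1 and 3 of WT, were compared by the genotype in the labels. The authors deposited estimated counts and FPKM (fragments per kilobase of transcript, scaled to library size) per gene for each library. The submitters' processing notes name Trimmomatic, Bowtie2 2.0.5, TopHat2 2.0.6, SAMtools 1.2, Cufflinks 2.1.1 and the TAIR10 build. The strand setting is not given in the sources used here. A deposited Cuffdiff table of fold changes, p-values and q-values was not used. Of the count values 1.47% were not whole, none of them in the 48 genes, and counts were rounded before testing. Estimated sharing of reads between near-identical copies can move counts from one copy to another.

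Genes were kept by filterByExpr, scaled by TMM and tested with edgeR 4.0.16 (glmQLFit, glmQLFTest) in R 4.3.3, with Benjamini-Hochberg adjustment over 20690 genes and a threshold of 0.05. The script was tested on simulated data. Standard errors (SE) are |log2 fold change| over the root of the F statistic. Alternatives were DESeq2 1.42.0, limma 3.58.1 on log2(FPKM + 1) or log2(FPKM + 0.1), plain library sizes, other filters and thresholds, summed copies, each library left out, and the replicate number as a block. Library totals of 50040048 to 69033269 counts set the counting precision, and every one of the 48 genes was above 3 counts in all libraries.

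The replicate numbers in the labels were checked for pairing. Deviations from the genotype means correlated between libraries of the same number at r = 0.217, 0.190 and 0.367 over 20690 genes, which are not independent replicates, although vip3-1 library 2 correlated more with WT library 1 (r = 0.289). Values of the block fit are given only where a call changed.

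The 48 genes and all lists were chosen with earlier results of these data known. Library values are given for each called gene, for the most abundant gene and the highest and lowest log2 fold change of each group, for all RBCS genes and RCA, and for the outermost called gene of each list with GLK1, GLK2, HY5, HEMA1, GUN4, GUN5, PORA, PORB, PORC, CCA1, LHY, TOC1 and VIP3. CAO, RVE8, CP12-1, PIF3, PIF5, SIG6 and other genes named outside that rule were singled out after their values were seen. Sequences were read from the RefSeq genome (TAIR10.1) with Biopython 1.88, and figures were drawn with matplotlib 3.10.9.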

Additional observations from a re-analysis of the deposited data

How the results depend on the processing

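The 20 called genes stayed lower under each alternative that gave them a value. The LHCB1 genes, LHCB2.1 and LHCB2.2 have no value of their own where copies were summed. Against 20 genes called, and called lower, the count was 8 with limma on log2(FPKM + 1) without a filter, 13 with limma on log2(FPKM + 1), 6 at an adjusted p under 0.01, 11 when a log2 fold change of 1 or more in size was asked for as well, and 6 to 20 with 1 library left out. It was 24 with DESeq2, 14 with limma on log2(FPKM + 0.1), 21 with plain library sizes, 20 without a filter or with at least 10 counts in every library, and 15 of 41 rows with copies summed. Over all genes, DESeq2 called 19.4% lower and plain library sizes 23.1%. With limma it was 2014 of 20690 on log2(FPKM + 0.1), 1974 of 20690 on log2(FPKM + 1) and 1604 of 26635 without a filter. With edgeR it was 2934 of 26634 without a filter, 3175 of 19351 with at least 10 counts, and 3320 of 20683 with copies summed. With the replicate block 20 genes were called, the same 20 (20 shared). Beyond the values given with HY5, TOC1 and CP12-1 and for markers of other cell types (ANT, 0.0492, and SUC2, 0.0110, as adjusted p), the block changed no other call among the genes tested here. Plain library sizes shifted the median of all genes by -0.10, and 67.8% of calls over all genes were then lower, against 52.3% with TMM.

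The LHCB median of -1.40 was -0.78 with copies summed, since 8 low values became 3 rows. The RBCS median ranged from -0.71 to 0.025 with 1 library left out. Signs changed for some uncalled genes. With 1 library left out, the log2 fold change ranged from -0.55 to 0.12 for LHCB4.3, from -0.48 to 0.81 for RBCS2B, from -0.60 to 0.14 for RBCS3B, from -0.17 to 0.15 for PSBR, from -0.066 to 0.18 for PSBY and from -0.24 to 0.0032 for PETE2. The upper ends came without WT library 3 and the lower ends without vip3-1 library 1, save for LHCB4.3, whose lower end came without WT library 2. With plain library sizes PSBY had -0.063 and PORC -0.010. The cause was not tested. Of 1231 values of single genes under the alternatives, 1013 kept direction and side of the threshold, 196 lost a call, 10 gained one and 12 changed sign. Where a genotype was left with 2 libraries, the fit pooled the spread of all 5.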

Other observations

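Transcripts of the plastid genome made up 0.00804%, 0.00754% and 0.00672% of counts in vip3-1 libraries 1 to 3, against 0.0180%, 0.0115% and 0.00886% in WT libraries 1 to 3. At such shares the plastid-encoded subunits of the photosystems could not be set beside the nuclear ones. The cause of the low shares was not tested. TGG1 and TGG2, the myrosinase genes of guard and myrosin cells, followed WT library 3 as the anther markers did. They were picked, after their values were seen, from the list of 7 guard cell and epidermis markers. In that list 3 log2 fold changes were negative, the median was 0.23 and 1 gene was called, higher in vip3-1. TGG1 had 169, 72.3 and 41.0 CPM in vip3-1, against 173, 122 and 562 CPM in WT. TGG2 had 199, 90.9 and 56.2 CPM in vip3-1, against 187, 137 and 722 CPM in WT. In both, vip3-1 library 1 was the highest of its genotype by CPM, as it was by CPM for each of the 48 photosynthesis genes.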
